A study of Mus musculus with 6 samples.

Results

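The clustered histone genes were the genes whose symbols start with Hist1h, Hist2h, Hist3h or Hist4h in the count tables of an RNA polymerase II chromatin immunoprecipitation study of mouse adrenal glands. The rule found 35 of 12718 genes. By class they were 4 H1, 7 H2a, 9 H2b, 8 H3 and 7 H4 genes, and by cluster 26 Hist1 genes on chromosome 13, 6 Hist2 genes on chromosome 3, 2 Hist3 genes on chromosome 11 and 1 Hist4 gene on chromosome 6. Glands of 3 Armc5(-/-) mice (KO) were set against glands of 3 wild-type mice (WT), all female, of the strain 129 sv X CD1 and aged 10 to 14 months. The knockout is given as a homozygous loss of Armc5 with no Cre driver or promoter named, and the material was whole glands, so cortex, medulla, capsule and vessels were measured together. Armc5 itself was not analysed here. Sheared, crosslinked chromatin was precipitated with an antibody against the N-terminal part of RPB1, the catalytic subunit of RNA polymerase II, and reads were counted per gene at the transcription start site (TSS), over the gene body and at the transcription end site (TES).

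The replication-dependent histone genes encode the linker histone H1 and the core histones H2A, H2B, H3 and H4, which package newly made DNA in S phase. They are short, mostly without introns, and sit in clusters where many copies encode nearly the same protein. Their transcription is driven by NPAT in nuclear bodies called histone locus bodies, and their transcripts end in a stem-loop, bound by SLBP, in place of a poly(A) tail. RPB1 counts read how much polymerase lies on a gene and not how much mRNA it makes. Counts were scaled within each region, so higher or lower in KO glands is relative to the other genes. A change shared by most genes would not be seen. In whole glands, fewer cells of a type and less polymerase per cell cannot be told apart.

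The libraries held 17936275, 28190157 and 24714835 counts over the 3 regions in KO replicates 1, 2 and 3 and 22203948, 14511177 and 26748906 in WT replicates 1, 2 and 3. By region they ranged from 1133364 to 3406223 counts at the TSS, from 12419812 to 22523647 over the gene body and from 958001 to 2294430 at the TES. KO replicate 1 and WT replicates 1 and 2 had the fewest counts and stood apart from the other libraries by the share of the predicted gene Gm10800, which took 2.67% to 11.7% of TSS counts in KO libraries and 3.39% to 25.1% in WT libraries. All 10 adrenal cortex markers were measured, with 0 called at an adjusted p under 0.05, and their summed TES counts ran from 6614 to 8453 CPM (counts scaled to a common total within a region) in KO libraries and from 3992 to 9758 CPM in WT libraries. The 7 chromaffin genes measured had medians (log2 fold change, KO over WT) of -0.04, 0.82 and 0.62 for the TSS, gene body and TES with 0 called, and KO library 2 was highest, at 2560 CPM at the TES, against 895.3 and 1328 CPM in the other KO libraries and 552.0 to 1552 CPM in WT libraries. Of 4 capsule and fibroblast genes 2, Pdgfra and Col3a1, were called lower at the TES, with sums of 95.9 to 124.9 CPM in KO libraries and 121.2 to 267.7 CPM in WT libraries. The 7 macrophage and 7 endothelial genes had 0 calls, of 10 lymphocyte genes 0 stood in the tables, and 1 kidney tubule and 1 adipocyte gene did. Of all tested genes 0.339%, 0.252% and 0.915% were called at the TSS, over the gene body and at the TES. Lists this short with 0 calls are near those shares. The part of cell makeup in the histone values was not tested.

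Across the 35 genes RPB1 counts lay mostly higher in KO glands, and the genes that passed the test did so in that direction. Calls were made at an adjusted p under 0.05 in edgeR's quasi-likelihood test with Benjamini-Hochberg adjustment over all genes of a region. At the TSS 2 of 35 histone genes were called higher and 0 lower, against 0.339% of all tested genes (0.339% higher and 0% lower). Of 34 genes tested over the gene body 1 was called higher and 0 lower, against 0.252% of all tested genes (0.244% higher and 0.00787% lower). At the TES 6 of 35 were called higher and 0 lower, against 0.915% of all tested genes (0.82% higher and 0.0946% lower). In all, 7 genes were called in at least 1 region: Hist1h1a in all 3, Hist1h2bm at the TSS, and Hist1h3a, Hist1h4a, Hist1h4c, Hist1h4i and Hist4h4 at the TES. Genes closer than 2000 bp were joined into 24 loci, of which 2, 1 and 4 held a called gene for the TSS, gene body and TES.

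The promoters of 6 of the 7 called genes are shown so that the elements searched for can be read in the genes that the calls turn on. Each runs from 250 bases before to 50 bases after the RefSeq start on GRCm38.p6, 5′ to 3′ on the gene's strand. Capitals mark the letters TATAAA, as in a TATA box, the letters CCAAT or, read from the other strand, ATTGG, the octamer as ATTTGCAT and the H1 box as AAACACA. They also mark E2F sites, spelled TTTCCCGC, TTTCGCGC, TTTGCCGC or TTTGGCGC, and the letters GTCCGC, which are part of the H4 site bound by HINFP. All motifs were searched on both strands, and in these 6 sequences none overlaps another. Hist1h3a has no entry in the promoter table. Hist1h1a lies at chr13:23763418-23763717 on the plus strand, Hist1h2bm at chr13:21721794-21722093 on the plus strand, Hist1h4a at chr13:23761200-23761499 on the minus strand, Hist1h4c at chr13:23698409-23698708 on the minus strand, Hist1h4i at chr13:22041313-22041612 on the minus strand and Hist4h4 at chr6:136804382-136804681 on the minus strand.
Hist1h1a: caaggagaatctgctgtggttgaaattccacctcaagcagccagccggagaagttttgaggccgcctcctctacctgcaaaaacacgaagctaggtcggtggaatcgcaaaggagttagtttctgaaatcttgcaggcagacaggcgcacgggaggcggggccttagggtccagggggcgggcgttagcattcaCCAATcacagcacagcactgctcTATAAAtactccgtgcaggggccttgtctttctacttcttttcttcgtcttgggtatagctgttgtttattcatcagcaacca
Hist1h2bm: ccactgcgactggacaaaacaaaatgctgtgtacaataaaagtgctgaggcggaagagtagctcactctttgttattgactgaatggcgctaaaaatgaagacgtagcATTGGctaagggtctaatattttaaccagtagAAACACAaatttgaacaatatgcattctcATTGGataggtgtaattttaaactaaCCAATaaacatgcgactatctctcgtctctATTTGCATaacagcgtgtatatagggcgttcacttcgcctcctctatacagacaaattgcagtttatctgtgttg
Hist1h4a: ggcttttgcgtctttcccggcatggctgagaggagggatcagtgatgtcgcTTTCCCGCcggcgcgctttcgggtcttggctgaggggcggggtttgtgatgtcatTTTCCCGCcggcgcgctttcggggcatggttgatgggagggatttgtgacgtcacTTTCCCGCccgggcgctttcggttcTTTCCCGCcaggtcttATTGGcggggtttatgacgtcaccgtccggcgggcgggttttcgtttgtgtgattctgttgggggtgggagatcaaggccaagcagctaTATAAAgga
Hist1h4c: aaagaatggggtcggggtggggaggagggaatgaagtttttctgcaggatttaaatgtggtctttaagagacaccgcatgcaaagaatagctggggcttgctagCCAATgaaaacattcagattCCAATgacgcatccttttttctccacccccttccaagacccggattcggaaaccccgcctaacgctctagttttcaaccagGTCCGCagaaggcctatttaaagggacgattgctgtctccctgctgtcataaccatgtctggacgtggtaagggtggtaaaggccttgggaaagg
Hist1h4i: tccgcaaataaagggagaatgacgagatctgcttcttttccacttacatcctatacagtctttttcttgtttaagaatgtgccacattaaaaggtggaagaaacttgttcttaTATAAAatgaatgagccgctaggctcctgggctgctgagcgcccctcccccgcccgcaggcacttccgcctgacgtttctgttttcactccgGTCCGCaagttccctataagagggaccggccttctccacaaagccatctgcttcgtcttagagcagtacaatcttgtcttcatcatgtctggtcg
Hist4h4: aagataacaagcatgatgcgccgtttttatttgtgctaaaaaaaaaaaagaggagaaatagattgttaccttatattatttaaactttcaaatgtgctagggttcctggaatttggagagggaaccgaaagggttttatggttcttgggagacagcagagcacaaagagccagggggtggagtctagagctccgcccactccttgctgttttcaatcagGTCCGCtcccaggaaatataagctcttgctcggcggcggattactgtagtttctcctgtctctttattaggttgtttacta

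Of the 35 genes, 30 had a promoter in the table, and their motifs were set beside 27025 promoters of the same length. CCAAT, the binding site of NF-Y, stood in 27 of 30 histone promoters (90%), against 37.9% of all promoters. TATAAA stood in 18 of 30 (60%), against 14.2%. The octamer, the site of OCT1 in H2B promoters, stood in 7 of 30 (23.3%), against 1.75%, and these were 4 of 7 H2a and 3 of 7 H2b promoters, Hist1h2bm among them. All 4 H2a octamers were read from the strand opposite to the gene. The windows of Hist1h2ae and Hist1h2bg overlap on opposite strands, so their octamer, TATAAA and CCAAT matches are the same sites, counted for both genes. GTCCGC, a motif added after values or sequences had been seen, stood in 11 of 30 (36.7%), against 9.48%. Its hits were 5 of 6 H4, 5 of 7 H2a and 1 of 7 H2b promoters. The Hist1h2ae and Hist1h2ad hits, at -235 and -213, lie within the neighbouring H2B genes Hist1h2bg and Hist1h2bf, 179 and 173 bp away. Hist2h2aa1 and Hist2h2aa2 are copies that carry the same hits, so the H2a count is not of separate promoter sites. Counted from the start, TATAAA begins at -33 in Hist1h1a, at -137 in Hist1h4i and at 42, downstream of the start, in Hist1h4a, so the matches in Hist1h4i and Hist1h4a lie away from the usual place of a TATA box. Hist1h4c, Hist1h4i and Hist4h4 hold GTCCGC at -45, -45 and -31, and Hist1h4a holds E2F sites and no GTCCGC in the window. The H1 box stood in 3 of 4 H1 promoters, the exception being Hist1h1a, and in 4 of 30 histone promoters (13.3%), against 7.14%. E2F sites stood in 3 of 30 (10%), against 2.32%. These matches describe letters in the window and do not show that a factor binds there.

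Hist1h1a, which encodes the linker histone H1.1, was higher in KO glands in every region. The gene is 745 bp long, so windows of its 3 regions may hold the same reads and may not be separate observations. At the TSS it had 138.5, 151.4 and 174.2 CPM in KO libraries 1, 2 and 3, against 77.9, 76.5 and 71.7 CPM in WT libraries 1, 2 and 3. The groups did not overlap, and the WT libraries lay close together. The log2 fold change was 1.04 ± 0.16 (SE, adjusted p = 0.0168). Over the gene body it had 25.0, 30.7 and 32.9 CPM in KO libraries, against 7.90, 5.04 and 3.66 CPM in WT libraries, a log2 fold change of 2.42 ± 0.29 (SE, adjusted p = 0.0332). At the TES it had 167.1, 129.8 and 184.9 CPM in KO libraries, against 34.9, 32.4 and 10.5 CPM in WT libraries. The lowest KO library lay well above the highest WT library there, and the log2 fold change was 2.69 ± 0.29 (SE, adjusted p = 4.05e-08), a 6.44-fold difference. The TES call held in all 16 alternative settings, with an adjusted p of at most 6.30e-06. The TSS call was lost without KO replicate 2 (adjusted p = 0.0995) or 3 (0.147) and without WT replicate 1 (0.126) or 2 (0.0889). The gene body call was lost without KO replicate 1 (0.0894), 2 (0.199) or 3 (0.257) and without WT replicate 1 (0.141). In these fits 14, 5, 14 and 20 of all genes were called at the TSS, against 43 with all libraries, and 0 over the gene body, against 32. With 1 library left out the log2 fold change ran from 0.95 to 1.11 at the TSS and from 2.17 to 2.78 over the gene body. The gene body call was also lost with scaling by the joint table (0.122) and with the mouse number series as a term (0.1000).

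**Figure D1:**
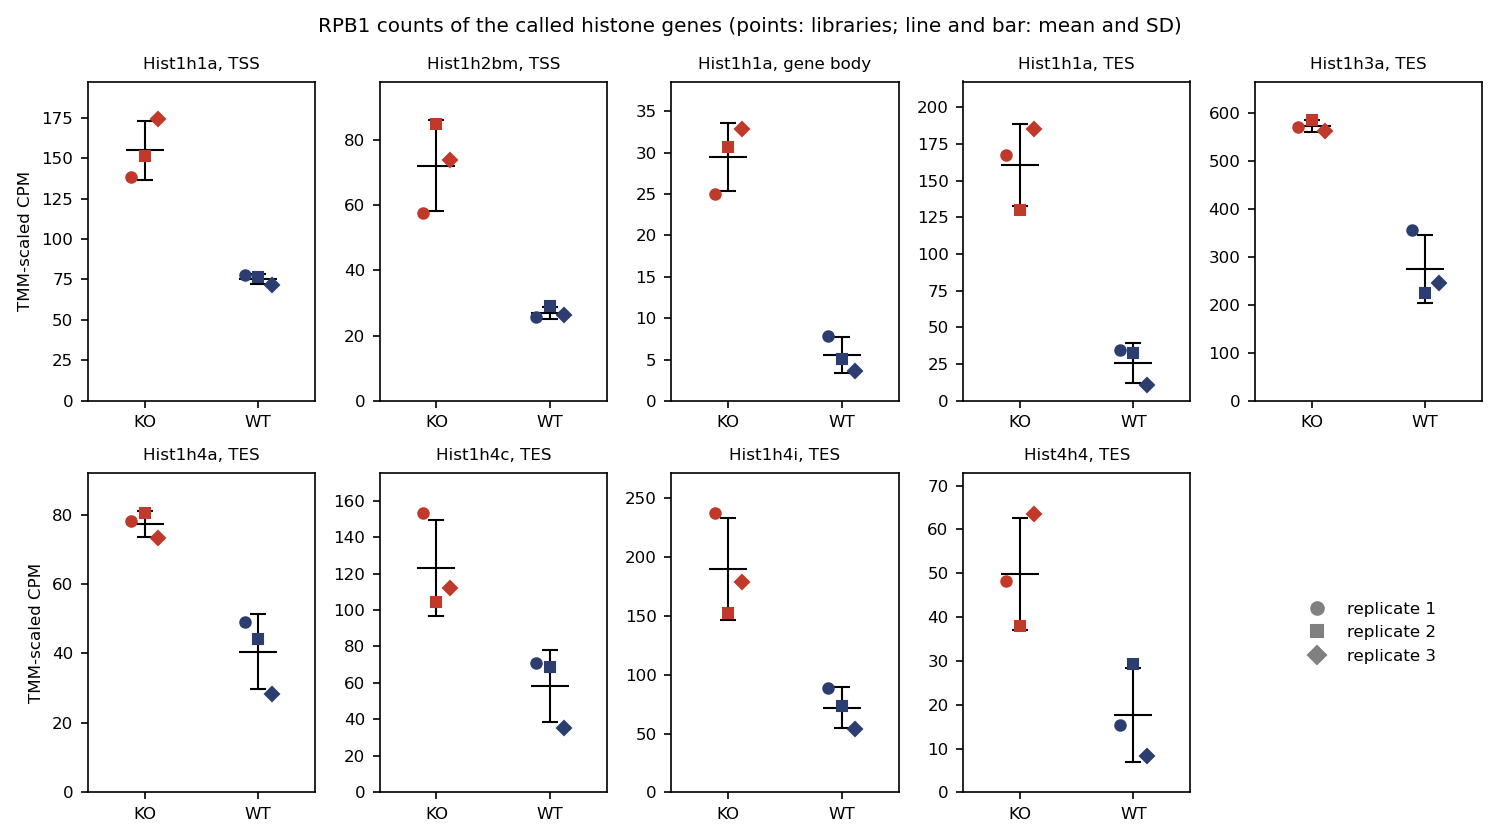
RPB1 counts of the 7 called histone genes in the region of each call, as CPM on a linear axis from 0, with KO libraries left of WT libraries. Points are libraries and the line and bar give the mean and SD over 3 mice; in all 9 panels the lowest KO library lies above the highest WT library.

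Hist1h2bm, an H2B gene, was the other histone gene called at the TSS. It had 57.4, 84.9 and 73.9 CPM at the TSS in KO libraries 1, 2 and 3, against 25.6, 29.0 and 26.2 CPM in WT libraries. No KO library reached down to the WT range, and the log2 fold change was 1.44 ± 0.22 (SE, adjusted p = 0.0176). Over the gene body it had 6.65, 9.55 and 4.68 CPM in KO libraries, against 2.27, 1.76 and 1.18 CPM in WT libraries. The log2 fold change of 2.02 ± 0.36 did not pass the test (adjusted p = 0.0967). DESeq2 was the 1 of 16 alternatives that called it (adjusted p = 7.63e-05). At the TES the log2 fold change of 0.78 ± 0.30 did not pass either (adjusted p = 0.443). Its TSS call was lost without KO replicate 2 (adjusted p = 0.123) or 3 (0.147) and without WT replicate 1 (0.129) or 2 (0.0889). The RefSeq gene Hist1h2aj lies 242 bp away and was not analysed here, and reads of the pair may fall in the same window.

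The H4 genes carried 4 of the 6 TES calls. H4 forms a dimer with H3 at the centre of the nucleosome, and the 7 genes encode the same core histone. Hist1h4i had 237.6, 152.6 and 179.0 CPM at the TES in KO libraries, against 88.7, 73.5 and 54.2 CPM in WT libraries, a log2 fold change of 1.40 ± 0.25 (SE, adjusted p = 0.000903). Hist4h4, the lone histone gene on chromosome 6, had 48.3, 37.9 and 63.4 CPM in KO libraries, against 15.4, 29.4 and 8.31 CPM in WT libraries, a log2 fold change of 1.61 ± 0.32 (SE, adjusted p = 0.00321). For Hist4h4 the gap between the groups was narrow, between KO library 2 and WT library 2. Hist1h4c had 153.3, 104.2 and 112.1 CPM in KO libraries, against 71.0, 68.6 and 35.4 CPM in WT libraries, a log2 fold change of 1.09 ± 0.25 (SE, adjusted p = 0.0148). Hist1h4a had 78.2, 80.4 and 73.3 CPM in KO libraries, against 49.1, 44.1 and 28.4 CPM in WT libraries, a log2 fold change of 0.95 ± 0.23 (SE, adjusted p = 0.0262). In each of the 4 genes WT library 3 was the lowest, and no KO library fell into the WT range. The call of Hist1h4i held in all 16 alternatives (adjusted p at most 0.00531). That of Hist4h4 was lost without KO replicate 3 (0.0522), that of Hist1h4c without KO replicate 1 (0.0720) or WT replicate 3 (0.0978), and that of Hist1h4a without KO replicate 2 (0.0900), WT replicate 2 (0.0509) or WT replicate 3 (0.170). Scaling by the joint table also ended the calls of Hist1h4c (0.0689) and Hist1h4a (0.103), and that of Hist1h4a was lost with table totals (0.0516) and DESeq2 (0.0931).

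At the TSS the same 4 H4 genes differed less. Hist1h4i had 231.3, 237.1 and 234.9 CPM at the TSS in KO libraries, against 170.4, 158.2 and 140.8 CPM in WT libraries, with no overlap and a log2 fold change of 0.59 ± 0.15 that did not pass (adjusted p = 0.243). Hist4h4 had 511.6, 501.4 and 511.5 CPM at the TSS in KO libraries, against 492.2, 471.6 and 438.7 CPM in WT libraries, a log2 fold change of 0.12 ± 0.16 (adjusted p = 0.981). Hist1h4c and Hist1h4a overlapped between the groups at the TSS, with log2 fold changes of 0.22 ± 0.18 and 0.33 ± 0.27. Gene body log2 fold changes were 1.23 for Hist1h4i, 1.00 for Hist1h4a, 0.75 for Hist1h4c and 0.66 for Hist4h4, none called. Hist1h4d, the other H4 gene named for its high TSS count, had a log2 fold change of 0.15, 0.53 and 0.36 at the TSS, over the gene body and at the TES, with overlapping groups in each.

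Hist1h3a, which encodes a replication-dependent core histone H3, was the H3 gene called at the TES. It had 571.8, 586.4 and 562.6 CPM at the TES in KO libraries, against 356.0, 224.5 and 245.8 CPM in WT libraries. The KO libraries lay close together and above every WT library. The log2 fold change was 1.06 ± 0.28 (SE, adjusted p = 0.0490). The call lay at the threshold: it was lost without KO replicate 1 (adjusted p = 0.169), 2 (0.231) or 3 (0.151) and without WT replicate 1 (0.0528) or 3 (0.0848), and under RLE scaling (0.0568), with no filter (0.0523) and with scaling by the joint table (0.122). Hist1h4a, Hist1h3a and Hist1h1a lie within 3618 bp on chromosome 13, at chr13:23760795-23764412, with gaps of 635 and 1281 bp, so windows of the 3 genes may hold the same reads and their TES calls count as 1 locus.

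The 9 called values were also read within the groups of libraries that the labels or the depths set apart. Mouse numbers start with C for KO replicate 1 and WT replicate 1, and within that pair the 9 log2 fold changes ran from 0.67 to 2.26. In the other 4 libraries they ran from 1.06 to 2.88. KO replicate 1 and WT replicates 1 and 2 had the fewest counts. In these 3 libraries the log2 fold changes ran from 0.75 to 2.31, and in the 3 deeper libraries from 1.18 to 3.91. These groups hold too few libraries for a test, and since no KO library overlapped a WT library in the 9 called values, their direction within any group of libraries was fixed beforehand and adds nothing to the calls.

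**Figure D2:**
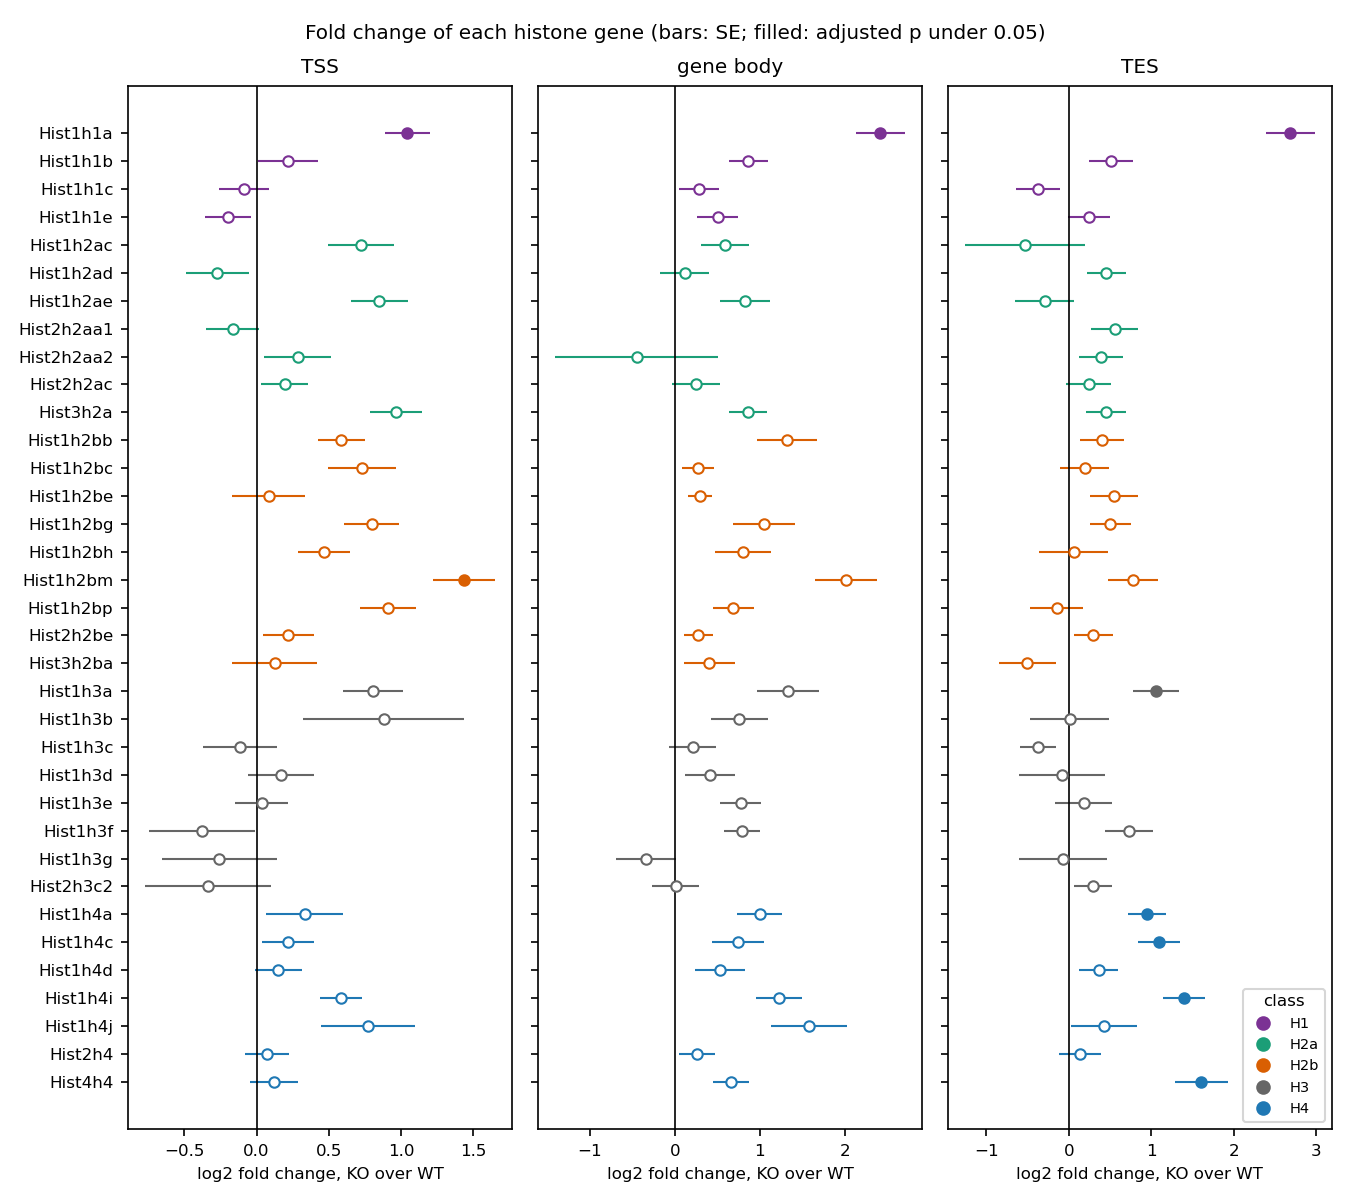
Log2 fold change of RPB1 counts, KO over WT, for each of the 35 histone genes at the TSS, over the gene body and at the TES, ordered by class and coloured by class. Points are estimates, bars are SE and filled points have an adjusted p under 0.05; 27 of 35, 32 of 34 and 27 of 35 points lie right of 0, and the axes differ between panels.

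Called and uncalled histone genes together lay mostly on the same side. The log2 fold change was above 0 in 27 of 35 genes at the TSS (77.1%), against 48.4% of all tested genes. Over the gene body it was above 0 in 32 of 34 (94.1%), against 46.3%, and at the TES in 27 of 35 (77.1%), against 47.8%. The median over the histone genes was 0.22, 0.68 and 0.36 at the TSS, over the gene body and at the TES, against -0.01, -0.02 and -0.02 over all tested genes. Scaling within a region holds the medians of all tested genes near 0. Without Hist1h1a the medians were 0.22, 0.66 and 0.33. The TES median rested in part on WT replicate 3: without it the median was 0.14 and 22 of 35 genes lay above 0. At an unadjusted p under 0.05 stood 13, 17 and 9 histone genes, against 5.57%, 5.05% and 6.85% of all tested genes. In 21 of 34 genes the log2 fold change was above 0 in all 3 regions, and in 1, Hist1h3g, it was below 0 in all 3. The share of all tested genes with the same sign in all 3 regions was not counted. Windows of the regions of a short gene may hold the same reads. Genes of a locus share neighbours and possibly reads, so these counts are not of independent genes.

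**Figure D3:**
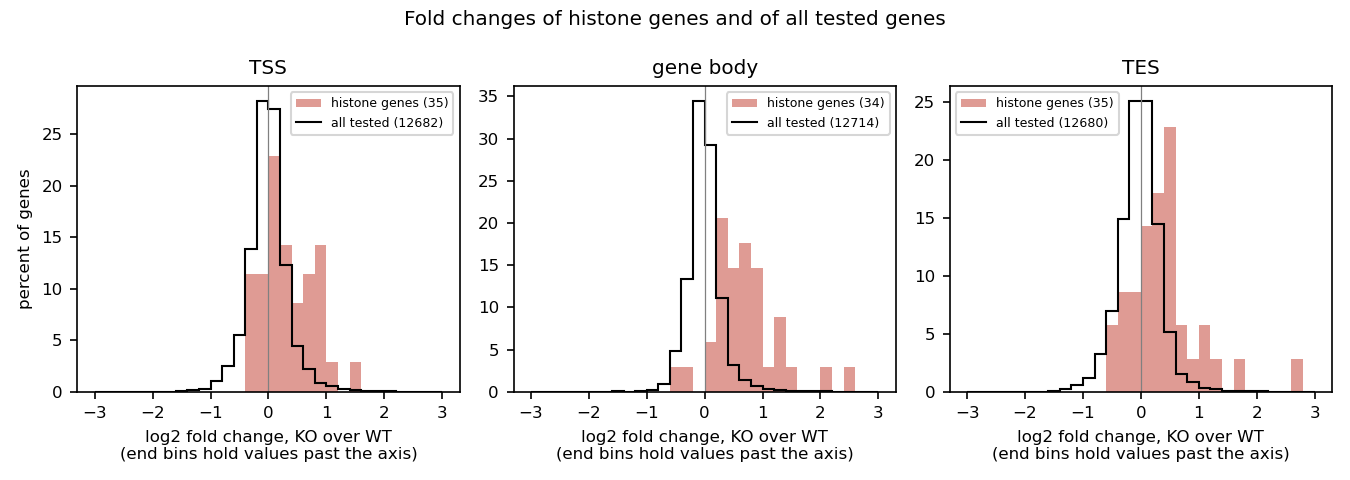
Percent of genes in each log2 fold change bin (0.2 wide, KO over WT) for the histone genes (red bars) and for all tested genes (black line) at the TSS, over the gene body and at the TES. Red bars overlap the line and are shifted to the right of it in each panel, with medians of 0.22, 0.68 and 0.36 against -0.01, -0.02 and -0.02.

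The libraries of the genotypes separated in a good part of the genes. All 3 KO libraries lay above all 3 WT libraries in 11 of 35 histone genes at the TSS, against 6.47% of all tested genes. The reverse held for 1, Hist1h2ad, against 4.93%. For gene body counts 18 of 34 lay above, against 6.51%, and 0 below, against 3.87%. At the TES 11 of 35 lay above, against 6.69%, and 1, Hist3h2ba, below, against 4.83%. Summed over all 35 genes, gene body counts were 928.7, 957.7 and 876.6 CPM in KO libraries, against 773.4, 517.8 and 546.9 CPM in WT libraries, or 921 ± 41.1 against 613 ± 140 CPM (SD, n = 3 each). The sums did not overlap there, nor at the TSS, with 5518 ± 449 against 4536 ± 436 CPM, nor at the TES, with 3872 ± 294 against 2694 ± 587 CPM. At the TSS the gap was narrow, between 5010 CPM in KO library 1 and 4944 CPM in WT library 1.

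The gene body of a histone gene is short, and other short genes also lay mostly above 0 over the gene body. In RefSeq 31 of the 35 genes are under 1000 bp long, from 375 to 911 bp. Among the other tested genes under 1000 bp, 35 of 45 (77.8%) had a gene body log2 fold change above 0, with a median of 0.23 and 0 called. At the TSS and the TES the medians of such genes were -0.01 and -0.03, and 47.8% and 43.5% lay above 0. The part of length over the gene body values of the histone genes was not tested. In 24 of the 35 genes another RefSeq gene lies within 1000 bp, and the sources used here do not give the widths of the counting windows. In genes this short, the TSS, gene body and TES windows of the same gene may also hold the same reads.

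By class, the H2b genes had the highest median at the TSS and the H4 genes at the TES. All 9 H2b genes had a TSS log2 fold change above 0, with a median of 0.59 and 5 with all KO libraries above all WT libraries. Summed H2b counts at the TSS were 972.6, 1311 and 1152 CPM in KO libraries, against 916.3, 692.9 and 806.9 CPM in WT libraries. KO library 1 lay just above WT library 1, and the other KO libraries lay well above. All 7 H4 genes had a log2 fold change above 0 in each region, with medians of 0.22, 0.75 and 0.95 at the TSS, over the gene body and at the TES. Summed H4 counts at the TES were 676.8, 522.4 and 538.0 CPM in KO libraries, against 355.4, 348.0 and 203.8 CPM in WT libraries, a ratio of means of 1.91. At the TSS the H4 sums were 1792 ± 56.5 CPM in KO libraries and 1537 ± 129 CPM in WT libraries. No test was made of a difference between classes.

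The H1, H2a and H3 genes were mixed at the TSS. Of the 4 H1 genes 2 had a TSS log2 fold change above 0, with a median of 0.07, and all 4 were above 0 over the gene body, with a median of 0.69. Of the 7 H2a genes 5 were above 0 at the TSS (median 0.29) and 5 of 6 over the gene body (median 0.42), and none was called in any region. Of the 8 H3 genes 4 were above 0 at the TSS (median -0.04) and 7 over the gene body (median 0.59). The H3 sums over the gene body were 110.9, 137.5 and 118.3 CPM in KO libraries, against 86.3, 56.3 and 71.5 CPM in WT libraries, with no overlap. At the TES Hist1h3a made up most of the H3 sum, which was 830 ± 49.1 CPM in KO libraries and 514 ± 119 CPM in WT libraries.

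**Figure D4:**
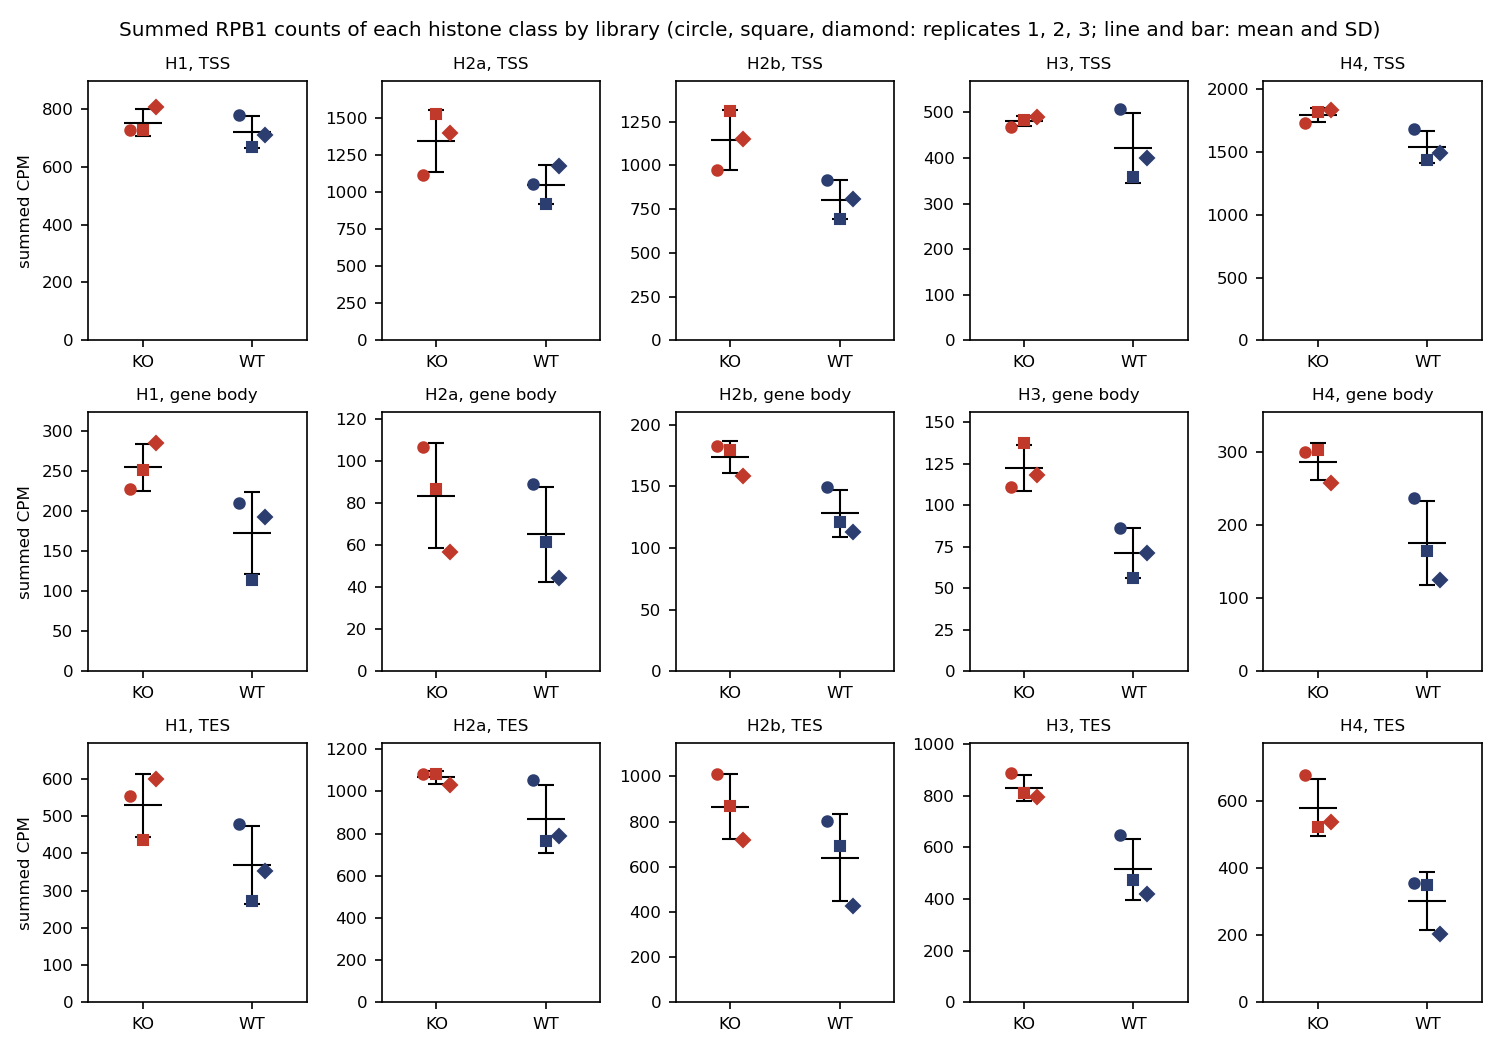
Summed RPB1 counts of the genes of each histone class (columns) at the TSS, over the gene body and at the TES (rows), in CPM on linear axes from 0 that differ between panels, with KO libraries left of WT libraries. Circles, squares and diamonds are replicates 1, 2 and 3, and the line and bar give mean and SD (n = 3 mice); the H4 sums at the TES average 579 CPM in KO and 302 CPM in WT.

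By cluster, the calls lay in Hist1 and at Hist4h4. The 26 Hist1 genes had medians (log2 fold change) of 0.40, 0.77 and 0.38 at the TSS, over the gene body and at the TES, with 2, 1 and 5 called. The 6 Hist2 genes had medians of 0.13, 0.25 and 0.30, with 0 called in any region and 0, 0 and 0 at an unadjusted p under 0.05. Their summed TSS counts were 1240, 1580 and 1504 CPM in KO libraries, against 1318, 1153 and 1438 CPM in WT libraries, and overlapped. The 2 Hist3 genes parted at the TES: Hist3h2a had a log2 fold change of 0.45 ± 0.24 and Hist3h2ba of -0.50 ± 0.35, neither called. The difference between clusters was not tested.

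Of the genes not called, those with the smallest p per region and direction are given here, and few came near to a call. At the TSS Hist3h2a, an H2A gene, had 138.5, 173.9 and 120.7 CPM in KO libraries, against 81.7, 65.2 and 73.9 CPM in WT libraries. The groups did not overlap, and the log2 fold change was 0.97 ± 0.18 (adjusted p = 0.0603). Hist1h2bp had a TSS log2 fold change of 0.91 ± 0.19 (adjusted p = 0.113) and Hist1h2ae of 0.85 ± 0.20 (adjusted p = 0.179), both with all KO libraries above all WT libraries. With DESeq2, and with the mouse number series or the depth class as a term, all 3 genes passed: Hist3h2a had an adjusted p of 0.00197, 0.0237 and 0.00161, Hist1h2bp of 0.0174, 0.0439 and 0.00647, and Hist1h2ae of 0.0331, 0.0407 and 0.00395. Scaling by the joint table called Hist3h2a (0.0383) and Hist1h2bp (0.0453), and leaving out KO replicate 1 called Hist3h2a (0.0336). In all, 6, 5 and 4 of 16 alternatives called Hist3h2a, Hist1h2bp and Hist1h2ae at the TSS. In the others the adjusted p reached 0.362, 0.570 and 0.913. DESeq2, the mouse number series and the depth class also called more of all genes, 95, 75 and 158 against 43 in the main fit. On the lower side Hist1h2ad had 29.8, 32.9 and 29.3 CPM at the TSS in KO libraries, against 37.6, 39.3 and 34.9 CPM in WT libraries, with a log2 fold change of -0.27 ± 0.22 (adjusted p = 0.952). Hist1h1e, a main somatic linker histone gene, had a TSS log2 fold change of -0.20 ± 0.16 (0.067 when scaled by the joint table). That of Hist1h3f was -0.38 ± 0.37. Both genes had overlapping groups and an adjusted p of 0.952. For gene body counts Hist1h4i (adjusted p = 0.190) and Hist3h2a (0.86 ± 0.22, adjusted p = 0.352) followed Hist1h2bm. On the lower side of the gene body Hist1h3g had a log2 fold change of -0.34 ± 0.35 (adjusted p = 0.9345). With DESeq2 Hist1h4i (adjusted p = 0.00328) and Hist3h2a (0.0388) passed for the gene body. There 179 of all genes were called, against 32 in the main fit, and 2 and 1 of 16 alternatives called these genes. At the TES Hist1h3f had 0.73 ± 0.29 (adjusted p = 0.482) and Hist1h2bg 0.51 ± 0.25 (0.6955) above 0. Hist1h3c and Hist1h1c had -0.37 ± 0.22 (adjusted p = 0.874) and -0.37 ± 0.26 (0.929) there.

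None of the 10 genes with the highest TSS counts of their class, 2 per class, was called at the TSS. Of all tested genes 0.339% were called there, so the lack of a call does not set these 10 genes apart. Among them Hist4h4, Hist1h4d and Hist1h1e are described above, and Hist1h3a had a TSS log2 fold change of 0.81 ± 0.21 (adjusted p = 0.284), with no overlap of the groups. Hist1h1c, another main somatic linker histone gene, had 226.3, 233.3 and 293.4 CPM at the TSS in KO libraries, against 284.8, 228.6 and 284.1 CPM in WT libraries. These values overlapped throughout, and the log2 fold change was -0.09 ± 0.17. Hist2h2aa2 and Hist2h2ac, the leading H2a genes, had TSS log2 fold changes of 0.29 ± 0.23 and 0.19 ± 0.16. Hist2h2be and Hist1h2bc, the leading H2b genes, had 0.22 ± 0.18 and 0.73 ± 0.24, with overlapping groups. Hist1h3e had 0.03 ± 0.18 at the TSS and 0.77 ± 0.24 over the gene body, where it had 30.8, 32.1 and 32.3 CPM in KO libraries, against 25.8, 13.7 and 16.0 CPM in WT libraries.

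Near-identical copies and divergent neighbours limit what 1 gene's count can say. Hist1h2ac and Hist1h2bc lie 239 bp apart, and their TSS counts were 250 and 237, 946 and 984, and 579 and 580 in KO libraries 1, 2 and 3, against 260 and 247, 93 and 98, and 410 and 417 in WT libraries. The paired counts differed by at most 5.49%, so an H2a and an H2b gene gave nearly the same value from windows that may lie on the same stretch. Hist2h2ac and Hist2h2be, 191 bp apart, differed by at most 17.4% and Hist1h2ae and Hist1h2bg, 179 bp apart, by at most 26.6%. These were the 3 closest of 11 neighbouring pairs in counts. The other 8 differed by up to 39.3% (Hist1h3a and Hist1h1a) to 1890% (Hist2h3c2 and Hist2h2aa2), with 89.8% for Hist1h4a and Hist1h3a. Hist2h2aa1 and Hist2h2aa2 are copies whose promoter entries are 85.3% identical over the whole window, where the median over the 78 pairs of the same class was 59.5%. The 2 windows are offset on the copied stretch, with GTCCGC at -69 in Hist2h2aa1 and at -29 in Hist2h2aa2. The 85.3% thus understates how alike the stretch held by both windows is. Hist2h2aa1 had gene body counts of 0, 1 and 0 in KO libraries and 0, 0 and 0 in WT libraries, below the filter, and was the 1 gene not tested in that region. Hist2h2aa2 had 32.3, 3.76 and 2.56 CPM over the gene body in KO libraries, against 28.1, 19.4 and 4.43 CPM in WT libraries, a spread within each genotype that left a log2 fold change of -0.45 ± 0.96 (adjusted p = 0.964).

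TSS counts relative to gene body counts were lower in KO glands in most histone genes, with none called. The change of this ratio was the interaction term of a fit to both regions with the library as a block, so it need not equal the difference of the fold changes fitted region by region. Of 34 histone genes 0 were called for the TSS ratio, where 0% of all tested genes were called and edgeR's unadjusted p was under 0.05 in 7 histone genes and in 3.64% of all genes. The change was below 0 in 26 of 34 (76.5%), against 52.2% of all tested genes, with a median of -0.36 against -0.02. All 7 H4 genes and all 4 H1 genes were below 0, with medians of -0.61 and -0.69, and 2 of 6 H2a genes were. The smallest p was that of Hist1h1a, with a change of -1.44 ± 0.27 (SE, adjusted p = 0.583): its TSS counts differed 2.06-fold and its gene body counts 5.34-fold between KO and WT glands.

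For TES counts relative to gene body counts 0 of 34 histone genes were called, against 0.0158% of all tested genes. At an unadjusted p under 0.05 stood 9, of which 8 were below 0, against 5.7% of all genes in either direction. The change was below 0 in 24 of 34 (70.6%), against 52% of all tested genes, with a median of -0.29 against -0.01. The H2b genes had a median of -0.81, with 7 of 9 below 0, and Hist1h2bm had -1.21 ± 0.39 (adjusted p = 0.751). Hist4h4 was the 1 of the 9 above 0, with 0.96 ± 0.33 (adjusted p = 0.794). The ratios share gene body counts with the gene body comparison and are not independent of it. In short genes the regions set against each other may also hold the same reads. The part of gene length in the ratios was not tested.

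**Figure D5:**
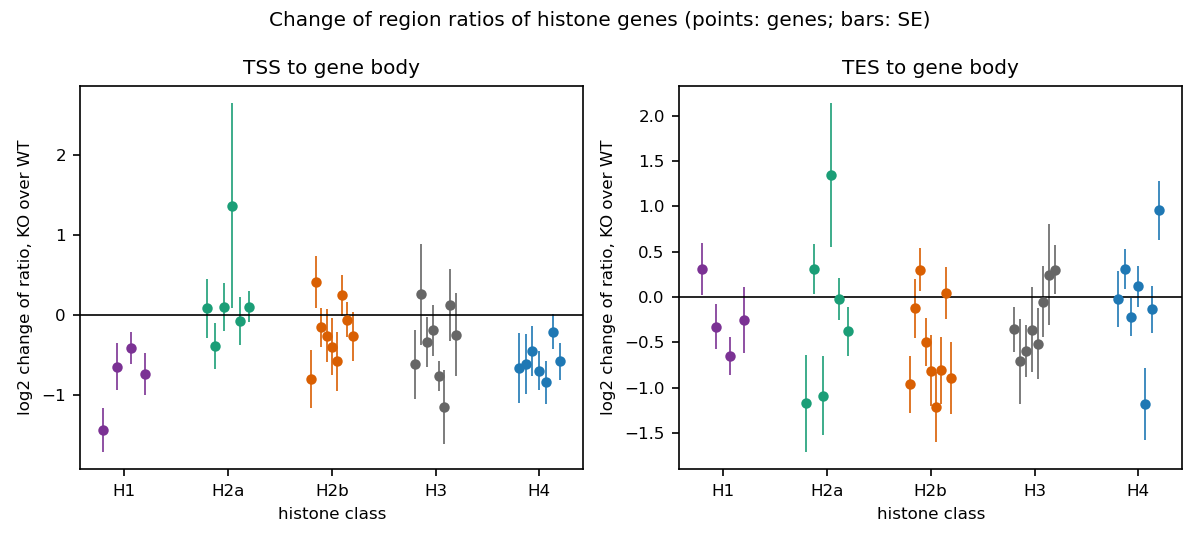
Log2 change of the TSS to gene body ratio (left) and of the TES to gene body ratio (right), KO over WT, for 34 histone genes grouped by class; points are genes and bars are SE. In the left panel all 4 H1 and all 7 H4 points lie below 0, and no gene in either panel passed the test.

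Genes that act on histone genes or with histones were read as lists. Of the 24 genes of histone transcription and processing in the tables, 0 were called in any region. Of all tested genes 0.339%, 0.252% and 0.915% were called at the TSS, over the gene body and at the TES. At those shares, 0 calls in a list this short do not set its genes apart. The median log2 fold changes of the 24 genes were 0.00, 0.00 and 0.11 at the TSS, over the gene body and at the TES. Npat, the coactivator of histone gene clusters, had 0.21 ± 0.17, -0.10 ± 0.13 and -0.14 ± 0.22. Casp8ap2, a protein of the histone locus body, had 0.14 ± 0.18, -0.13 ± 0.17 and 0.21 ± 0.22. Slbp, the stem-loop binding protein, had -0.32 ± 0.43, 0.42 ± 0.21 and 0.37 ± 0.24. None of these passed the test. Of 21 histone chaperone genes 0 were called, which is also near the shares of all tested genes, with medians of 0.07, -0.07 and 0.11.

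Histone genes outside the clusters were read as a list too. Of 10 genes listed here as replication-independent histones 1 was called, at the TES, where 0.915% of all tested genes were called. The medians of the list were 0.07, 0.18 and -0.26. The called gene was H2afx, which encodes the H2A variant phosphorylated at DNA breaks. It had 119.6, 103.3 and 170.2 CPM at the TES in KO libraries, against 59.1, 74.5 and 58.2 CPM in WT libraries. The groups did not overlap, and the log2 fold change was 1.05 ± 0.24 (SE, adjusted p = 0.0145). H2afz, which encodes H2A.Z, had 0.04 ± 0.22, 0.73 ± 0.25 and 0.22 ± 0.26 at the TSS, over the gene body and at the TES, none called. Genes of S phase, the cell cycle stage in which clustered histone genes are active, were read beside them. Of 26 measured 0 were called in any region, near the shares of all tested genes, with medians of -0.03, -0.17 and -0.12.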

How the data were processed

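The authors deposited raw counts of reads for each gene, whole numbers, at the TSS, over the gene body and at the TES, 1 column per library, with no pooling by the authors. A joint count table of 38154 rows repeated the same counts, with 0 cells that differed, and the authors' log2 CPM of it were not used. Per the submitters' processing notes the builds were GRCm38 and mm10, and the tools named were BWA, Trimmomatic, Picard, HOMER, MACS2, limma, edgeR and bcl2fastq 2.20. The counting tool, the treatment of reads with several matches, strand, duplicates and window widths are each not given in the sources used here.

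Each table was tested whole with edgeR 4.0.16 in R 4.3.3: TMM scaling, filterByExpr (minimum count 10, minimum total 15), the quasi-likelihood F test of KO against WT with no covariate, and Benjamini-Hochberg adjustment. CPM use TMM-scaled totals, with SD over 3 mice. The SE of a log2 fold change was taken as the fold change's absolute value divided by the root of F. Ratio tests used a region by genotype interaction with library as a block. Scripts were tested on simulated data. Alternatives were RLE scaling, table totals, scaling by the joint table, no filter, 20 counts in 3 libraries, DESeq2 1.42.0, limma 3.58.1, the replicate block, the mouse number series, the depth class and leaving out each library. The 6 mouse numbers differ, so each library was taken as 1 animal.

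Symbols were matched to RefSeq of GRCm38.p6 (35 of 35), which also gave coordinates and promoters. Copies were compared by promoter identity, since protein sequences were not used here. The histone genes and gene lists were chosen with earlier results of these data known, and the comparison with short genes and the GTCCGC motif were added after values or sequences had been seen. Genes were named if called, if among the 2 with the highest mean TSS CPM of a class or the highest of the Hist2, Hist3 and Hist4 clusters, or if among the 3 with the smallest p per region and direction. Called genes of the histone-related lists, with Npat, Slbp, Casp8ap2 and H2afz, were added, as were Pdgfra and Col3a1 after their values had been seen. Armc5 and Th were not analysed here.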

Additional observations from a re-analysis of the deposited data

How the results depend on the processing

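The count of histone genes called at the TSS, 2, was 4 under joint scaling, 5 with DESeq2 and 5 with the mouse number series. It was 8 with the depth class as a term. With 1 library left out it ran from 0 to 7. It was 0 without KO replicate 2 or 3 or WT replicate 1 or 2, and 7 without KO replicate 1. Calls over all genes moved as well. At the TSS they were 43 in the main fit and 107, 95, 75 and 158 in those settings, in the same order. They ran from 5 to 84 with 1 library left out. The gene body count, 1, was 0 under joint scaling, 8 with DESeq2, 0 with the mouse number series and 2 with the depth class. It was 0 to 1 with 1 library left out. Over all genes the gene body calls were 32 in the main fit and 0, 179, 0 and 95 in those settings. They ran from 0 to 37 with 1 library left out. The TES count, 6, was 3 under joint scaling and 3 to 5 with 1 library left out, with 3 without WT replicate 3. Over all genes the TES calls were 116 in the main fit, 61 under joint scaling and 73 to 148 with 1 library left out. The TSS ratio count, 0, was 1 with the depth class as a term (Hist1h1a, lower). There 27 of all genes were called, against 0 in the main fit. The TES ratio count was 0 in all alternatives. All these calls of histone genes but that ratio were higher in KO. The median TSS log2 fold change, 0.22, was 0.47 under joint scaling, where the median of all genes was 0.24 (-0.12 for the gene body and TES). The cause of these changes was not tested. Among single genes, Hist1h1e at the TSS turned to 0.067 under joint scaling, and Hist2h2aa2 over the gene body turned to 0.045 with the depth class, and with 1 library left out ran from -2.44 (without KO replicate 1) to 0.12 (without WT replicate 1). Same-numbered libraries of KO and WT did not deviate together in every pair, so the numbers were not taken as pairs: the correlations of their deviations for numbers 1, 2 and 3 were 0.441, -0.213 and 0.358 at the TSS, 0.08, -0.582 and 0.27 for the gene body, and 0.0298, -0.308 and 0.214 at the TES. With the replicate block the TSS, gene body and TES counts of histone genes were 5, 0 and 5. Over all genes 100, 0 and 194 were called with that block. Hist1h1a over the gene body (adjusted p = 0.215) and Hist1h3a at the TES (0.0650) were no longer called. Hist3h2a (0.0113), Hist1h2bp (0.0193) and Hist1h2ae (0.0192) were called at the TSS. The median log2 fold change ran from 0.15 to 0.28 at the TSS, from 0.50 to 0.85 for the gene body and from 0.14 to 0.54 at the TES with 1 library left out.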
